A study of Rattus norvegicus with 9 samples.

Results

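Carbonic anhydrases are zinc enzymes that turn carbon dioxide and water into bicarbonate and a proton, and back. The family divides by location: Car1, Car2, Ca3 and Ca13 encode cytosolic enzymes, Ca5b a mitochondrial enzyme, and Ca4, Ca9, Ca12 and Ca14 enzymes whose active site faces the outside of the cell. Ca8 encodes a related protein that has lost catalytic activity. In blood-forming tissue the family is best known from red cells, whose carbon dioxide transport depends on Car1 and Car2. Celecoxib carries a sulfonamide group, which can bind the active-site zinc of carbonic anhydrases, besides inhibiting cyclooxygenase 2. That binding acts on protein, whereas the values below are RNA levels.

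The members were the genes whose symbol in the deposited count table is Car or Ca followed by 1, 2, 3, 4, 5b, 8, 9, 12, 13 or 14. All 10 were found among 34408 gene entries, and 9 of them passed the low-count filter that left 15954 genes for testing. Ca4 did not pass. Spleen RNA was sequenced from rats of the genotype label WT in 9 libraries, 3 in each of 3 groups. Control rats carry no further treatment label. TAA rats received thioacetamide, a hepatotoxin used to induce liver fibrosis, into the peritoneum every 3 days over 2 periods of 8 weeks, the first with 200 mg/kg per dose, the second with 100 mg/kg. TAA+celecoxib rats had the same TAA course with celecoxib at 20 mg/kg/day over its last 8 weeks. Celecoxib was not given without TAA. The sources used here give no strain, sex or age, nor do they say that each library is a separate animal, so p-values measure only the spread between these libraries.

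Libraries held 14211789 to 19014761 counts, so 1 count was worth 0.0526 to 0.0704 CPM, the unit of library-size-adjusted read counts used below, before normalization. Lymphocyte markers were present in every library, with 10 B cell genes summing to 2068 to 4036 CPM. The labels also name splenocytes, yet endothelial markers (421 CPM in control 1 and 410 in TAA+celecoxib 1, otherwise 854 to 1354) and stromal markers (968 to 1537) were present. Control 1 and TAA+celecoxib 1 stood apart, with macrophage markers at 3557 and 2920 CPM where the other 7 libraries had 6128 to 10494. TAA 1 had the hepatocyte albumin gene Alb at 575 CPM. Control 1 had Alb at 89.0 CPM, and no other library exceeded 0.701.

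Promoters are shown for Car9 and Car12, written Ca9 and Ca12 in the count table, because these members are known targets of hypoxia-inducible factor, whose binding sites share the core ACGTG. The sequences are RefSeq's for build GRCr8, 250 bases before to 50 after the gene start, and capitals mark ACGTG on either strand (CACGT when it lies on the other strand). Car9 is at chr5:62558774-62559073 on the plus strand and Car12 at chr8:76169565-76169864 on the plus strand.
Car9: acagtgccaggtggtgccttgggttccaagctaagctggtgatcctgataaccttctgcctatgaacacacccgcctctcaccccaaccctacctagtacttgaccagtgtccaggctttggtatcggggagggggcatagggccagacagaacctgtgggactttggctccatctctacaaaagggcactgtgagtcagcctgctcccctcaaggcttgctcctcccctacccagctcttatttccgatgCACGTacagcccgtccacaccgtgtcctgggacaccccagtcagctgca
Car12: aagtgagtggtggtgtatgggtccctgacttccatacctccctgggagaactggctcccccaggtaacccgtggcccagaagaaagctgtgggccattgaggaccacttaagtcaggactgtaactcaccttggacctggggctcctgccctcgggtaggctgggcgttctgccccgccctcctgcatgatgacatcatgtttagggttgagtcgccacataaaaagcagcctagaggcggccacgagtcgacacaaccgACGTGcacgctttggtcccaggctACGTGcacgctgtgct
The Car9 window held 1 match, starting 2 bases into the transcript when the start is counted as 1, and the Car12 window held 2, starting at 11 and 35. Of the 5 member promoters matched by symbol in the table, 4 held the core, and so did 19.3% of all 33469 promoters of this length. A match of these letters is a description of the sequence and not evidence of binding.

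Levels of different genes were compared per length with the deposited FPKM (fragments scaled by gene length and library size). Car2 was the most abundant member, with a median of 155 FPKM over the 9 libraries (range 18.1 to 684), and Car1 was next with 55.9 (9.79 to 386). Car2 exceeded Car1 in 9 of 9 libraries, by 1.35 to 3.04 times. No other member came near the medians of Car1 and Car2: the third, Ca14, had a median of 3.10 FPKM and a highest value of 3.81. The highest single value among the other members was 5.54 FPKM, for Ca5b in TAA 3. In control 3 Ca5b was at 3.99 and Car1 at 9.79. Ca8 (median 2.18), Ca5b (1.96) and Ca13 (1.12) followed. Ca14 exceeded Ca8 in 7 of 9 libraries, but Ca8 exceeded Ca5b in only 2 of 9, so the order of that pair rests on the median alone. Ca3 (0.359), Ca12 (0.304) and Ca9 (0.271) lay within each other's ranges, and Ca4 was listed at 0 in 6 of the libraries. Reads of Car1 and Car2 made up 64.7% to 99.1% of all member reads in a library, with the lowest share in control 3.

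**Figure D1:**
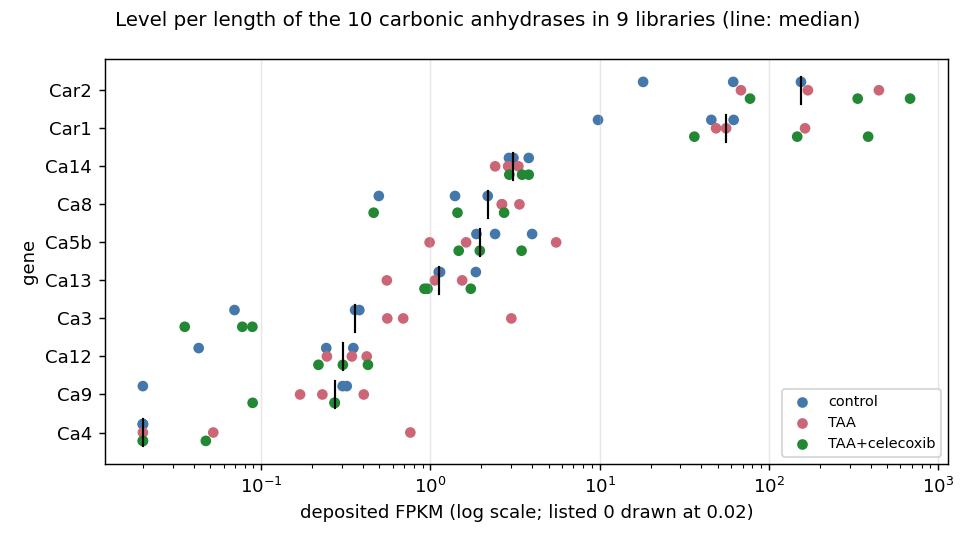
Deposited FPKM on a log axis for the 10 carbonic anhydrases, 1 point per library, coloured by group, with a black line at the median of 9 libraries; values listed at 0 are drawn at 0.02. Car2 and Car1 lie above every other member in every library, and the remaining 8 have medians of 3.10 or less.

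No member was called in any comparison by edgeR's quasi-likelihood test, adjusted over all 15954 genes. The same test called 0 genes of any kind in TAA against control (0% of those tested), in TAA+celecoxib against TAA (0%) and in TAA+celecoxib against control (0%). The smallest edgeR adjusted p among members was 0.788, 0.890 and 0.911 in these comparisons. At an unadjusted p under 0.05, 1 of 9 members passed in each, against 6.0%, 5.09% and 5.03% of all genes tested. It was Ca3 in both comparisons with TAA and Car1 in TAA+celecoxib against control. Ca3 passed the low-count filter only through its TAA libraries, where it was high. EdgeR on control and TAA+celecoxib alone did not test it, so counts of members that include Ca3 are no support for a pattern. With the replicate number as a block, edgeR called 0 members. At an unadjusted p under 0.05, 4, 2 and 3 of 9 passed, against 1475, 1287 and 1065 of all 15954 genes. Same-numbered control and TAA+celecoxib libraries deviated together, though the labels do not tie equal numbers to each other. In that comparison the 3 were Car1, Car2 and Ca3, against 6.68% of all genes. Their log2 fold changes with the block were 2.21, 2.40 and -1.91, each with edgeR adjusted p = 0.698. DESeq2, the alternative test, called 0, 1 and 0 members, against 0.292%, 0.119% and 0.130% of genes that had an adjusted p. Its calls in the lower direction were 0.128%, 0.0706% and 0.0543% of those genes, and the 1 member was lower. Limma-voom called 0 members in each, with 1, 1 and 0 at an unadjusted p under 0.05, against 861, 741 and 631 of all 15954 genes. Each pair of comparisons shares 1 group of libraries, so their values are not independent.

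**Figure D2:**
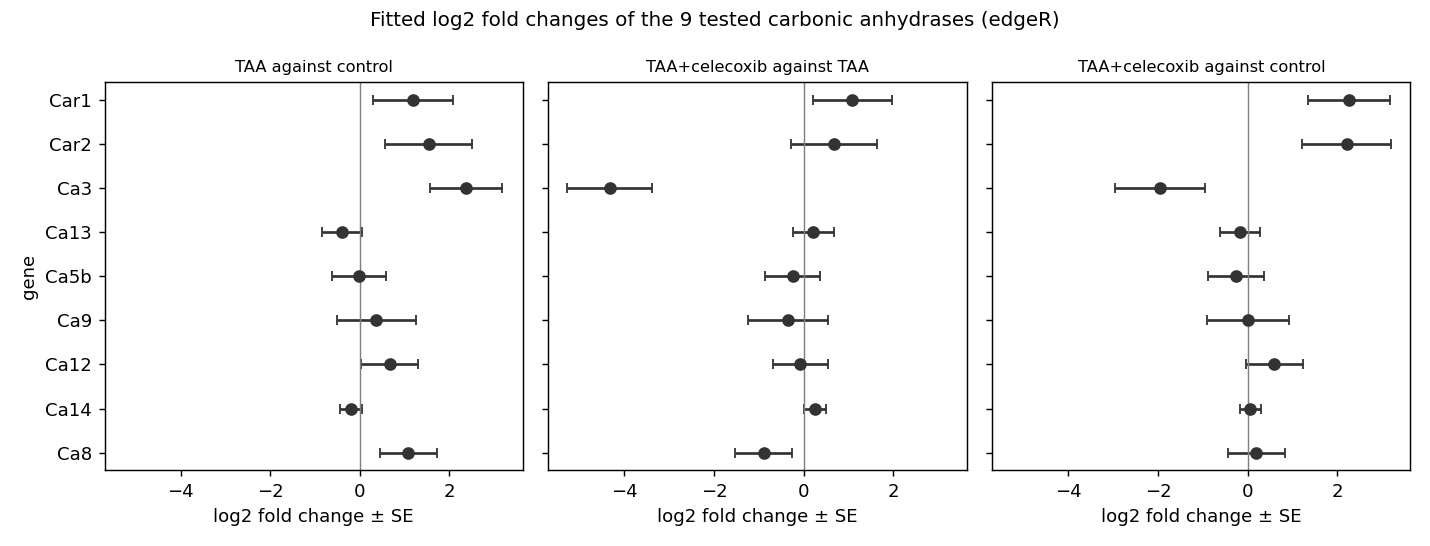
Fitted log2 fold change (horizontal axis) with its standard error for the 9 tested members, in the 3 comparisons. Ca3 is farthest from 0 in TAA+celecoxib against TAA, at -4.32, and Car1 and Car2 lie above 2 in TAA+celecoxib against control; none passed the adjusted threshold.

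Among the cytosolic enzymes, Car1 and Car2 are the isoforms of red cells and their precursors, Car2 being the fast and widely expressed form. Car2 (ENSRNOG00000009629) was at 259, 102 and 29.6 CPM in controls 1 to 3. TAA libraries 1 to 3 had 742, 113 and 279 CPM, and TAA+celecoxib libraries 1 to 3 had 567, 1117 and 128 CPM. The lowest control was 37.7 times below the highest TAA+celecoxib library, but the groups overlapped in every comparison. Controls alone spanned 8.75-fold, TAA 6.55-fold and TAA+celecoxib 8.75-fold. The fitted log2 fold change of Car2 was 1.54 ± 0.97 (SE) in TAA against control (edgeR adjusted p = 0.788). It was 0.68 ± 0.96 in TAA+celecoxib against TAA (0.931) and 2.21 ± 0.99 in TAA+celecoxib against control (0.911). Single libraries moved these values: without TAA 1 the first became 0.60, without control 1 it became 2.53, and without TAA+celecoxib 2 the second became -0.12. The third was 1.41 without TAA+celecoxib 2 and 3.20 without control 1.

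Car1 (ENSRNOG00000010698) was at 74.0, 53.9 and 11.4 CPM in the controls. TAA libraries had 194, 57.5 and 65.4 CPM, and TAA+celecoxib libraries had 178, 450.1 and 42.7 CPM. Car1 and Car2 shared their extremes: control 3 was lowest and TAA+celecoxib 2 highest for both. The fitted log2 fold change of Car1 was 1.18 ± 0.89 in TAA against control (edgeR adjusted p = 0.795) and 1.08 ± 0.88 in TAA+celecoxib against TAA (0.890). In TAA+celecoxib against control it was 2.27 ± 0.92 (edgeR unadjusted p = 0.0360, adjusted 0.911), with overlapping groups. Without TAA 1, Car1 was 0.41 in TAA against control; without TAA+celecoxib 2 its differences from TAA and from control became 0.06 and 1.24.

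As a sum, markers of red cells and their precursors shared the lowest and the highest library with both genes, but not the whole order of libraries. The 25 erythroid marker genes summed to 8379 to 13733 CPM in controls, 12957 to 42938 in TAA and 12485 to 61070 in TAA+celecoxib. Control 3 was again lowest and TAA+celecoxib 2 highest. The sum was mostly globin RNA. As mean log2 CPM, which weighs each gene alike, control 3 was also lowest (3.76), but TAA 1 (7.77) was just above TAA+celecoxib 2 (7.76). The most abundant of the 25 genes, Hba-a1 and Hbb, encode globin chains and have near-identical copies, so their reads may be split. Hba-a1 was at 4238 CPM in control 3 and 23651 CPM in TAA+celecoxib 2, and Hbb was at 2147 and 20678 CPM. In TAA+celecoxib 1, where Car2 was at 567 CPM, Hbb was at 2790, below controls 1 and 2 at 4181 and 5485. In TAA 3 the erythroid sum was 26293 CPM, above every control, while Car1 was at 65.4, below control 1 at 74.0. Fitted values of the erythroid list were above 0 for 24 of 25 genes in TAA against control (median log2 fold change 1.88, all genes 0.0017). They were above 0 for 19 of 25 in TAA+celecoxib against TAA (median 0.18, all genes 0.0071) and 24 of 25 in TAA+celecoxib against control (2.0, all genes 0.0012). EdgeR called 0 of the 25 in each, with 6, 0 and 15 at an unadjusted p under 0.05, against 6.0%, 5.09% and 5.03% of all genes tested. In bulk RNA a change in the number of erythroid cells and a change in RNA per cell cannot be told apart. The part of erythroid cell content in the Car1 and Car2 values was not tested.

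**Figure D3:**
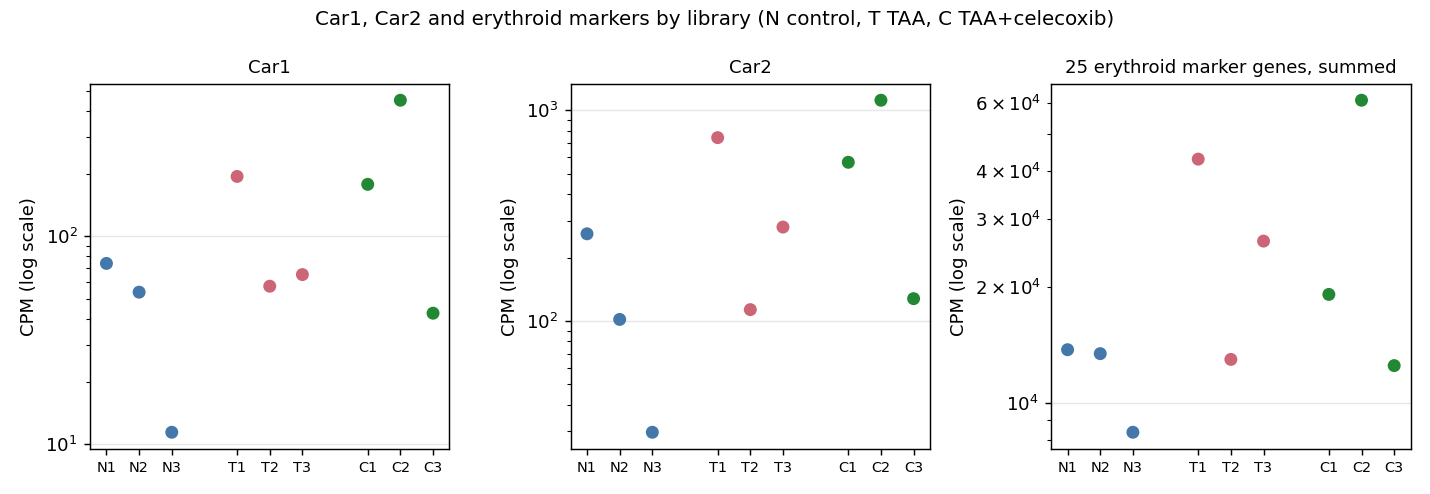
CPM on log axes for Car1, Car2 and the sum of 25 erythroid markers, 1 point per library (N1 to N3 control, T1 to T3 TAA, C1 to C3 TAA+celecoxib). In all 3 panels N3 is lowest and C2 highest, and each group overlaps the others.

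The genes most like Car2 over the 9 libraries, by Pearson correlation of log2 CPM and as a description only, were Slc25a21 (0.99), Tspo2 (0.99), Slc30a10 (0.99), Tmie (0.99) and Icam4 (0.99). Tspo2 is an erythroid translocator protein and Icam4 a red cell adhesion molecule. Among the 50 genes most like Car2 were 9 of the 24 erythroid markers that could be ranked, including Klf1, the erythroid transcription factor, and Ahsp, the alpha globin chaperone. The bicarbonate exchanger Slc4a1 of the red cell membrane and the gas channel gene Rhag were in that set as well. For Car1 the most alike genes were Ssx2ip (0.99), Cenpt (0.99), Fignl1 (0.98), Pklr (0.98) and Cited4 (0.97). Pklr encodes the pyruvate kinase of red cells and liver. Of the erythroid markers, 3 (Klf1, Trim10 and Tspo2) were among the 50 genes most like Car1. Such correlations were high for many genes: number 50 in order still had 0.96 for Car2 and 0.94 for Car1.

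Ca3 (ENSRNOG00000010079) encodes a cytosolic isoform of low activity that is abundant in adipocytes, skeletal muscle and liver. Its read counts were 10, 2 and 10 in the controls, 68, 13 and 21 in TAA, and 2, 2 and 1 in TAA+celecoxib. On the CPM scale Ca3 was at 0.616, 0.111 and 0.569 in control, 4.83, 0.890 and 1.10 in TAA, and 0.127, 0.140 and 0.0564 in TAA+celecoxib. Every TAA library was above every control and every TAA+celecoxib library, while controls and TAA+celecoxib overlapped.

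The fitted log2 fold change of Ca3 in TAA+celecoxib against TAA was -4.32 ± 0.95 (edgeR unadjusted p = 0.00142, adjusted 0.890). DESeq2 gave -4.42 ± 1.06 with an adjusted p of 0.0301, and so called Ca3 lower. Pooled counts of 102 in TAA and 5 in TAA+celecoxib gave a ratio of 20.4, with a 95% exact interval of 8.46 to 64.1 that covers counting error only. TAA 1 supplied 68 of the 102 reads: without it the ratio was 9.63 (3.75 to 31.5), the edgeR value -3.16, and the DESeq2 call was lost (log2 fold change -3.24, DESeq2 adjusted p = 0.576). Over all alternatives run, the adjusted p of this difference lay between 0.0301 and 0.999. In TAA against control the fitted value was 2.37 ± 0.80 (edgeR unadjusted p = 0.0158, adjusted 0.788; DESeq2 adjusted p = 0.391), and without TAA 1 it was 1.2. The pooled ratio was 5.02 (3.14 to 8.36), and 2.37 (1.35 to 4.26) without TAA 1. The difference of TAA+celecoxib from control was -1.95 ± 1.0 (edgeR adjusted p = 0.911). For each difference that involves Ca3, an exact permutation test of 3 against 3 libraries cannot go below p = 0.1, and it gave 0.1, 0.1 and 0.3.

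Markers of tissues known to hold Ca3 were read in the same libraries. All 10 adipocyte markers together, led by Cfd and Fabp4, which other spleen cells also express, summed to 310 to 789 CPM in control, 591 to 961 in TAA and 254 to 511 in TAA+celecoxib. Cfd was at 357 to 625 CPM in TAA and 183 to 326 in TAA+celecoxib, and Fabp4 at 144 to 319 and 57.3 to 173. Single adipocyte genes differed in direction. The lipid droplet gene Cidec had 30, 31 and 43 counts in control, 21, 27 and 41 in TAA, and 54, 34 and 26 in TAA+celecoxib, and the lipase gene Lipe 192, 150 and 203, 96, 133 and 244, and 168, 118 and 147. The defining adipocyte genes Adipoq, Plin1 and Lep, picked from the list after their values were seen and so no support for a pattern, together had 0, 0 and 3 counts in control, 4, 5 and 10 in TAA, and 0 in each TAA+celecoxib library. Of the 4 adipocyte markers tested, 2 were above 0 and 2 below in TAA against control, and 1 above and 3 below in TAA+celecoxib against TAA, with 0 called by edgeR and 0 at an unadjusted p under 0.05.

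The 9 hepatocyte markers, led by Tf and Alb, summed to 1473 CPM in TAA 1 and to 171 to 755 in the others. Outside TAA 1 and control 1 nearly all of this sum was Tf, as in TAA 3 (Tf 754.7 of 755.5 CPM) and TAA+celecoxib 1 (169.8 of 170.5). Tf did not follow Alb: it was lowest in control 1, at 149 CPM, where Alb was at 89.0. The cell source of Tf was not tested. TAA 1 held most of this signal for 3 of the 4 that were tested: Alb was at 575 CPM there and at 0.137 and 0.157 in TAA 2 and 3, Apoa1 at 23.9, 0.137 and 0.0522, and Hpx at 71.0, 0.685 and 0.470. The fourth, the transferrin gene Tf, had 538, 417 and 755 CPM in TAA 1 to 3 and 170, 369 and 274 in TAA+celecoxib 1 to 3. In TAA+celecoxib against TAA all 4 were below 0 (median -5.70, 4 at an unadjusted p under 0.05, 0 called by edgeR). Among all genes tested 5.09% passed that unadjusted level. Without TAA 1, in an alternative chosen after seeing the data, 2 were above 0 and 2 below (median -0.0040), with Tf alone at an unadjusted p under 0.05, and the edgeR value of Ca3 was -3.16. In TAA against control all 4 were above 0 (median 2.87), and without TAA 1 only Tf was (median -2.69). Control 1 was the highest control for the genes then below 0. In controls 1 to 3 Alb had 1444, 0 and 1 counts, Apoa1 29, 12 and 1, and Hpx 125, 7 and 12. Ca5a, the mitochondrial isoform of liver, had 0 counts in all 9 libraries. Of the skeletal muscle list, 8 genes were in the files and summed to 41.6 to 68.7 CPM in control, 30.9 to 37.4 in TAA and 30.2 to 58.0 in TAA+celecoxib. The part of adipocyte or hepatocyte RNA in the Ca3 values was not tested.

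**Figure D4:**
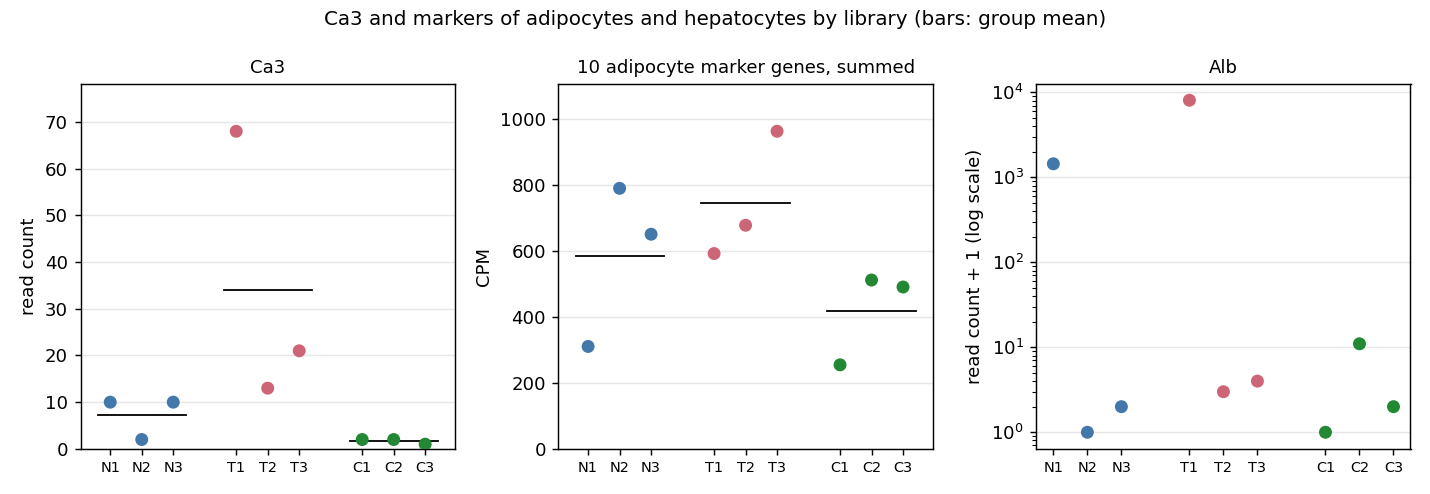
Ca3 read counts (left), CPM summed over 10 adipocyte markers (middle) and Alb read counts plus 1 on a log axis (right) by library, with black bars at group means in the first 2 panels (N control, T TAA, C TAA+celecoxib). Ca3 has 13 to 68 counts in TAA and 1 to 2 in TAA+celecoxib, the adipocyte sums of TAA overlap those of control and lie above those of TAA+celecoxib, and Alb is high in T1 and N1.

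The genes most like Ca3 were Ethe1 (0.94), a mitochondrial sulfur dioxygenase, Ddost (0.89), Bik (0.88), Pccb (0.88) and Edn1 (0.87), the endothelin 1 gene. Its 50 nearest genes included Dcn of the stromal list, Hpx of the hepatocyte list and Pf4 of the megakaryocyte list.

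Ca13 (ENSRNOG00000021323), the remaining cytosolic isoform, was at 3.76, 2.28 and 2.22 CPM in control. TAA libraries had 2.13, 3.08 and 1.10 CPM, and TAA+celecoxib libraries had 3.54, 1.82 and 1.92 CPM. Its highest values were in control 1 and TAA+celecoxib 1, the libraries low in macrophage markers. Fitted differences were -0.39 ± 0.45, 0.21 ± 0.45 and -0.18 ± 0.45 on the log2 scale (edgeR adjusted p = 0.845, 0.946 and 0.991). S100a3 (0.98), Scn11a (0.97), Sost (0.97), Gemin7 (0.96) and Lrmp (0.96) were most like it.

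The 4 genes Car2, Ca3, Car1 and Ca13 lie in that order within chromosome 2, with Car2 from 88097720 to 88113029, Ca3 from 88126667 to 88135410, Car1 from 88217188 to 88227479 and Ca13 from 88282961 to 88314254, as the files give them. Car1 is on the plus strand and the other 3 on the minus strand, and no other entry in the files overlaps any of the 10 members. Ca3 lies between Car2 and Car1 and had 2 reads in TAA+celecoxib 2, the library where both neighbours were highest. Of the other members, Ca14 is on chromosome 2 (198010349 to 198016898), Ca8 and Ca9 on chromosome 5 (21249020 to 21345810 and 59008933 to 59015528), Ca12 on chromosome 8 (72405748 to 72460240), Ca4 on chromosome 10 (72272248 to 72281067) and Ca5b on chromosome X (32232142 to 32292072). The build of these coordinates is not settled by the files, and they are not those of the promoters.

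Ca5b (ENSRNOG00000029330), the mitochondrial isoform found in many tissues, was at 5.42, 6.89 and 11.3 CPM in control. TAA libraries had 2.84, 4.66 and 15.7 CPM, and TAA+celecoxib libraries had 4.30, 5.54 and 9.87 CPM. TAA held both the lowest and the highest library, and the groups overlapped throughout. Its fitted differences were -0.02 ± 0.61, -0.24 ± 0.61 and -0.26 ± 0.61 (edgeR adjusted p = 0.996, 0.956 and 0.990). Without TAA 3 the value for TAA+celecoxib against TAA was 0.81. Ncr1 (0.93), Nkg7 (0.93), Atp6v0a2 (0.92) and Inpp5a (0.92) were among the 5 genes most like Ca5b, of which Ncr1 and Nkg7 are genes of natural killer cells.

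Ca8 (ENSRNOG00000005669), whose protein lacks enzyme activity and binds the inositol trisphosphate receptor, was at 0.740, 2.06 and 3.19 CPM in control. TAA libraries had 3.91, 3.90 and 4.91 CPM, and TAA+celecoxib libraries had 0.696, 2.10 and 4.0 CPM. All TAA libraries lay above all controls, whereas TAA+celecoxib overlapped both. The means were 4.24 ± 0.58 CPM (SD, n = 3) in TAA, 1.99 ± 1.22 in control and 2.27 ± 1.66 in TAA+celecoxib. Fitted differences were 1.08 ± 0.63 in TAA against control, -0.90 ± 0.63 in TAA+celecoxib against TAA and 0.19 ± 0.64 in TAA+celecoxib against control (edgeR adjusted p = 0.788, 0.890 and 0.998). Control 1 and TAA+celecoxib 1 had the lowest Ca8, and these are the libraries with low macrophage and endothelial markers. Without both, the values were 0.68, -0.47 and 0.22. Single omissions also moved them the other way, to 1.59 in TAA against control without control 3 and to -1.60 in TAA+celecoxib against TAA without TAA+celecoxib 3. The endothelial and macrophage genes Stab1 and Hmox1 were among its 50 nearest, and Pygb (0.99), Ece1 (0.98), Man2a2 (0.98) and Ppfia4 (0.98) were among the 5 most like it. The part of macrophage or endothelial content in the Ca8 values was not tested.

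With Ca3, Ca8 made 2 of 9 tested members whose TAA libraries were all above the controls, and 0 were all below. Among all genes tested 6.94% were all above and 7.89% all below. In TAA+celecoxib against TAA, Ca3 was the only member without overlap, lower in TAA+celecoxib, against 5.03% of all genes that were lower and 5.87% that were higher. Both counts include Ca3, which passed the low-count filter only through its TAA libraries, where it was high. Its place in them is therefore no support for a pattern. Against control, 0 members had TAA+celecoxib libraries free of overlap, where 9.68% of all genes were, 5.27% higher and 4.42% lower. Within the same-numbered pairs, TAA+celecoxib was above control in 3 of 3 for Car1, Car2 and Ca12 and below in 3 of 3 for Ca13 and Ca5b, against 18.8% and 18.5% of all genes.

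Of the enzymes at the cell surface, Ca14 (ENSRNOG00000023162) was the steadiest member, with 1.59-fold between its highest and lowest library. It was at 4.87, 3.67 and 3.87 CPM in control, 3.06, 4.18 and 3.60 in TAA, and 4.49, 3.65 and 4.79 in TAA+celecoxib. All groups overlapped, and the fitted differences were -0.19 ± 0.24, 0.26 ± 0.24 and 0.06 ± 0.24 (edgeR adjusted p = 0.853, 0.903 and 0.998). Cyb561d1 (0.98), Elk4 (0.94), RGD1307621 (0.94), Ano9 (0.94) and Ubash3a (0.93) were most like it.

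Ca9 and Ca12 encode the transmembrane isoforms tied to hypoxia and tumours, whose promoters are printed above. Ca12 (ENSRNOG00000017766) had 2 to 18 reads per library, and was at 0.925, 0.111 and 0.626 CPM in control, 0.639, 1.10 and 0.888 in TAA, and 1.14, 0.561 and 0.789 in TAA+celecoxib. Ca9 (ENSRNOG00000017073) had 0 to 16 reads, and was at 0, 0.667 and 0.626 CPM in control, 0.355, 0.479 and 0.836 in TAA, and 0.190, 0.561 and 0.564 in TAA+celecoxib. Control 1 had no Ca9 read, and a count of 0 there allows up to 0.178 CPM before normalization, in counting error alone. Groups overlapped for both genes in every comparison. Fitted differences of Ca12 were 0.66 ± 0.64, -0.07 ± 0.62 and 0.59 ± 0.64, and those of Ca9 0.37 ± 0.89, -0.36 ± 0.89 and 0.01 ± 0.92 (edgeR adjusted p from 0.821 to 0.999). Without control 2, which had 2 reads of Ca12, its differences from control became 0.17 in TAA and 0.10 in TAA+celecoxib, and without control 1 they became 1.24 and 1.16. Kcnq5 (0.94), AABR07021022.1 (0.90), Mcf2l (0.89), Rbmx (0.88) and Scube1 (0.88) were most like Ca12. Ptgdr2 (0.99), AABR07031756.1 (0.99), Dusp16 (0.98), Zeb1 (0.97) and Mpp5 (0.97) were most like Ca9. Number 50 in order still had 0.94 for Ca9, whose values rest on 0 to 16 reads, 0.94 for Ca8 and 0.92 for Ca13.

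Ca4 (ENSRNOG00000002916), anchored to the membrane of capillary endothelium and epithelia, had 21 reads in all, 19 of them in TAA 3. TAA 2 and TAA+celecoxib 1 had 1 read each and the other 6 libraries 0, which allows up to 0.171 to 0.208 CPM before normalization. TAA 3 was at 0.992 CPM. The exact permutation test gave p = 0.4 in TAA against control, 0.4 in TAA+celecoxib against TAA and 1 in TAA+celecoxib against control, where 0.1 is the least it can give. TAA 3 had the highest sums of neutrophil markers (2572 CPM, others 115 to 949), of mast cell, eosinophil and basophil markers (312 CPM, others 52.0 to 119) and of endothelial markers (1354 CPM, others 410 to 1148). It also had the highest sums of macrophage markers (10494 CPM, others 2920 to 7587), adipocyte markers (961 CPM, others 254 to 789) and duct epithelium markers (432 CPM, others 167 to 402). The duct epithelium sum was mostly Cdh1, at 425 CPM in TAA 3. As mean log2 CPM, which weighs each gene alike, the same list was at 0.72 in TAA 3 and 1.75 in TAA 1. S100a9 and S100a8, the leading neutrophil genes, were at 1009 and 652 CPM in TAA 3. Kit was at 31.0 CPM there and 25.6 to 38.2 in the others, while Prg2, an eosinophil granule gene, was at 146 CPM there and at most 34.1 elsewhere. Other genes of that list went differently: Hdc was lowest in TAA 3, at 1.62 CPM, and Cpa3 and Mcpt1 were highest in TAA 1. The part of these cell types in the Ca4 reads was not tested.

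**Figure D5:**
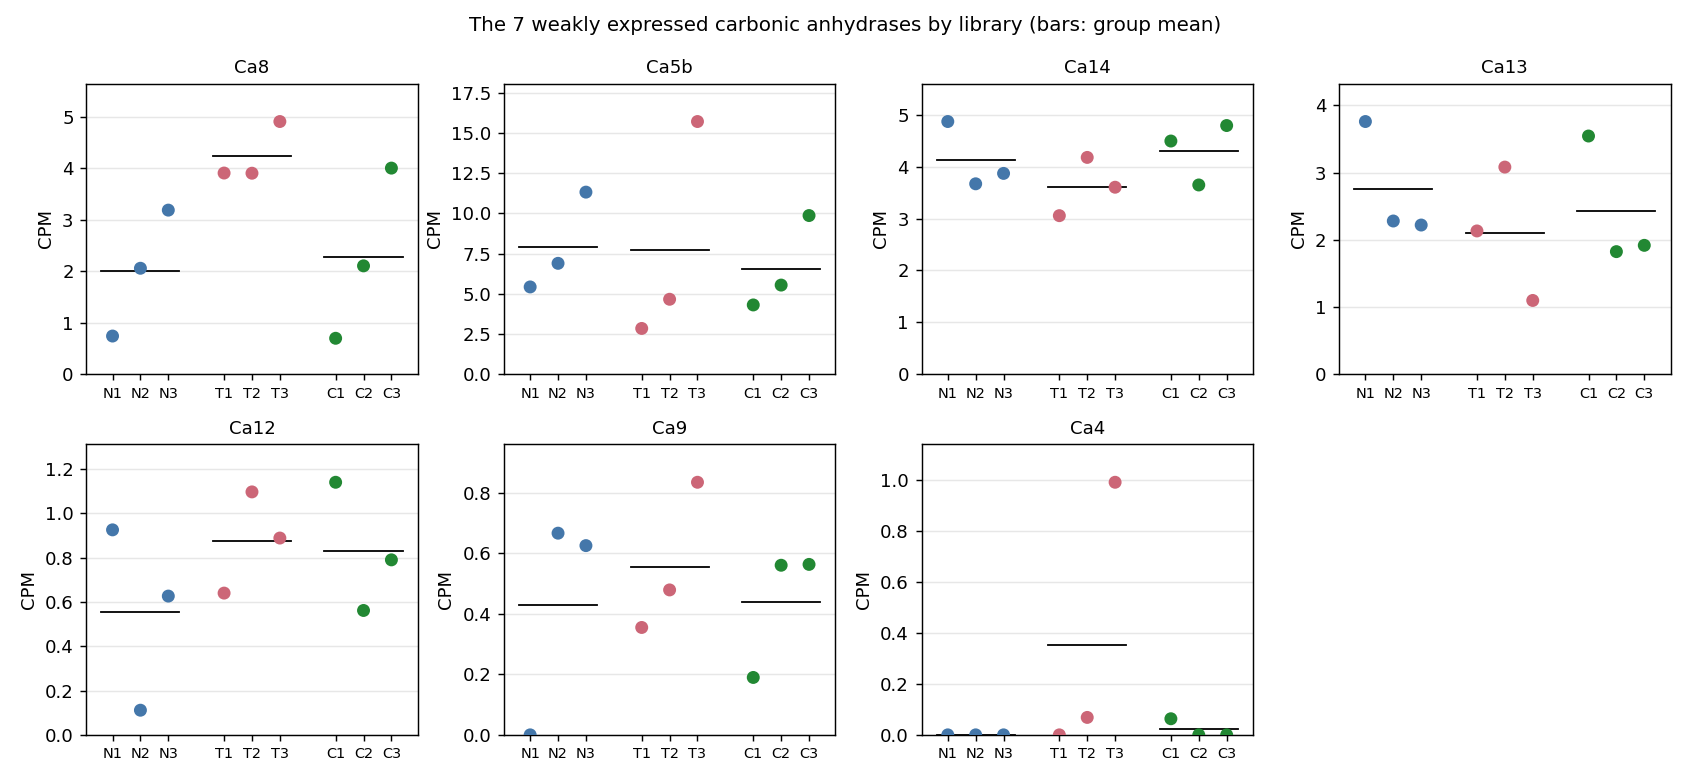
CPM of the 7 weakly expressed members by library, with black bars at group means; each panel has its own vertical axis from 0. N1 to N3 are control, T1 to T3 TAA and C1 to C3 TAA+celecoxib. Ca8 has its highest mean in TAA, Ca14 varies least, and 19 of 21 Ca4 reads are in T3.

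Carbonic anhydrases outside the member list were weak or absent. Ca6, the secreted isoform, was at 5.14 ± 0.61 CPM (SD, n = 3) in control, 3.51 ± 1.14 in TAA and 3.16 ± 1.18 in TAA+celecoxib, with both treated groups below all controls and log2 differences of -0.55 and -0.70 (edgeR adjusted p = 0.788 and 0.911). Ca11, an inactive relative, was at 4.77 ± 0.64, 3.72 ± 0.84 and 4.05 ± 0.67 CPM. Car7 had at most 1 read in a library, and Ca5a, Car10 and Car15 had 0.

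Carbonic anhydrases work with carriers of bicarbonate, protons, lactate and gases. Of 27 such genes 23 were tested, and edgeR called 0 in each comparison. Against control, TAA had 15 above 0 and 8 below (median 0.09, all genes 0.0017). In all, 5 of 23 were at an unadjusted p under 0.05 (all genes 6.0%). The borate and proton carrier gene Slc4a11 was at 5.76 ± 0.89 CPM in TAA and 11.8 ± 3.36 in control, the lactate carrier Slc16a1 at 103 ± 47.4 and 45.9 ± 6.63, and the ammonium channel Rhcg at 0.921 ± 0.646 and 0.257 ± 0.162. TAA+celecoxib against TAA had 12 above 0 and 11 below (median 0.01), with 2 at an unadjusted p under 0.05 (all genes 5.09%). Slc4a11 was at 8.96 ± 2.27 CPM in TAA+celecoxib, Bsg, the chaperone of lactate carriers, at 216 ± 11.8 against 278 ± 30.8, and the lactate exporter Slc16a3 at 8.80 ± 4.57 against 17.4 ± 6.80. TAA+celecoxib against control had 11 above 0 and 12 below (median -0.02), with 4 at an unadjusted p under 0.05 (all genes 5.03%). The smallest p there belonged to the water channel Aqp1, at 293 ± 277 and 64.3 ± 31.3 CPM, to Rhag, at 86.4 ± 89.6 and 11.6 ± 10.6, and to Slc16a1. Aqp1 and Rhag are red cell membrane genes, and the part of erythroid content in their values was not tested.

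All 16 hypoxia target genes were tested and 0 were called, with 0 at an unadjusted p under 0.05 in each comparison. Their median log2 fold changes were 0.07, -0.04 and -0.02. Single genes varied between libraries, P4ha1 from 23.1 to 95 CPM, Pfkfb4 from 1.33 to 6.24 and Adm from 11.8 to 28.8. Vegfa, the vascular growth factor, was at 76.5 ± 6.30 CPM in control, 56.7 ± 14.1 in TAA and 62.1 ± 14.7 in TAA+celecoxib. Ndrg1 was at 105 ± 1.74, 130 ± 25.6 and 103 ± 20.5 CPM, and the kinase Pdk1 at 15.7 ± 2.36, 18.4 ± 2.24 and 19.8 ± 1.37. P4ha2 was at 17.3 ± 5.05 CPM in TAA and 12.9 ± 0.57 in TAA+celecoxib, Pfkfb3 at 68.7 ± 5.79 and 62.1 ± 5.47, and Adm at 21.3 ± 6.86 in TAA+celecoxib and 14.7 ± 4.30 in control.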

How the data were processed

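RNA from 9 rat spleen samples was sequenced. Files deposited by the authors hold read counts and FPKM for each gene, used without change. Each deposited FPKM was the count divided by gene length and by a library constant 0.955 to 1.05 times the count total. HISAT2 2.0.5 and mRatBN7.2 are named per the submitters' processing notes. The sources used here do not name the counting tool, the annotation or the strandedness, and the build of the files' coordinates is not settled. Entries with no symbol (1525) held 1.43% to 1.77% of counts.

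EdgeR 4.0.16 (R 4.3.3) fitted all 9 libraries by group with a quasi-likelihood model, TMM normalization and filterByExpr (minimum count 10, total 15). Tests were 2-sided, with Benjamini-Hochberg adjustment and a threshold of 0.05. The common biological coefficient of variation was 0.311. CPM used TMM library sizes, and log2 CPM a prior count of 2. The fit was tested on simulated data. Alternatives were DESeq2 1.42.0, limma 3.58.1 (voom, and on log2(FPKM + pseudocount) with 0.1 or 1), other filters and scaling, the compared groups alone, a replicate block and each library left out.

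The rule named all members, the 5 genes most like each tested member (mean CPM of at least 1), the 3 pathway genes with the smallest p per comparison and the 2 most abundant markers of each list discussed. Of the genes most like Ca5b and Ca8, 1 each is not reported here. Members and lists were chosen with earlier results of these data known. Labels give equal replicate numbers. Deviations of same-numbered control and TAA+celecoxib libraries correlated at 0.18 to 0.47 in all 3 pairs, so that comparison was also read by pairs. Labels do not say that equal numbers share an animal, batch or day, and pairing was not established. Deviations cancel out within a group, so these correlations are not independent. The largest was between control 1 and TAA+celecoxib 1, both low in macrophage markers. Same-numbered correlations involving TAA ranged from -0.21 to 0.24, which overlaps the others.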

Additional observations from a re-analysis of the deposited data

How the results depend on the processing

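EdgeR called 0 members under every alternative. DESeq2 called 1 member, Ca3, in TAA+celecoxib against TAA, and 0 when TAA 1 was omitted as well. Over all genes, where edgeR called 0 in each comparison, DESeq2 called 50, 22 and 24, and 42, 21 and 23 without TAA 1. EdgeR on the 2 groups alone called 1 gene, Rpl35al1, in TAA+celecoxib against control. Leaving out each library in turn gave 0 to 1, 0 to 3 and 0 to 2 calls over all genes. The single call (LOC100911575) came without TAA+celecoxib 2. The 3 calls (Fabp5, LOC103689983, Rpl35al1) and the 2 (the last 2 of these) came without TAA 1. The cause was not tested. With the replicate block, edgeR called 0 members and 0 genes in each comparison, with 1475, 1287 and 1065 genes at an unadjusted p under 0.05 against 957, 812 and 803 without it. Of the members 4, 2 and 3 of 9 passed at that level with the block and 1 in each comparison without it. The block changed no call.

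Of 531 member fold changes recomputed, 504 kept their direction and 27 reversed. Car1 and Ca3 had no reversal in any of the comparisons. With libraries left out in turn, the log2 range was -0.12 to 1.61 for Car2, -0.16 to 0.60 for Ca13 and -0.36 to 0.14 for Ca12 in TAA+celecoxib against TAA. In TAA+celecoxib against control it was -0.55 to 0.11 for Ca13, -0.022 to 0.20 for Ca14 and -0.52 to 0.69 for Ca8. For Ca5b it was -1.07 to 0.37, -0.66 to 0.81 and -0.68 to 0.10 in the 3 comparisons, and for Ca9 -0.19 to 0.81, -0.60 to 0.069 and -0.55 to 0.46. Omitting control 1 and TAA+celecoxib 1, an alternative chosen after seeing the data like the omission of TAA 1 under DESeq2, gave -0.16 for Ca13 in TAA+celecoxib against TAA, and -0.20 for Ca9 in both comparisons with control. Ca5b was 0.039 in TAA+celecoxib against TAA on log2(FPKM + 0.1), and 0.38 in TAA against control under DESeq2 without TAA 1. Depth limits Ca3, Ca4, Ca9 and Ca12, which had 129 reads or fewer over the 9 libraries.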
